A study of Mus musculus with 16 samples.

Results

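Glutathione, thioredoxin and NRF2 target genes were followed in p53-/-; Myc mouse hepatoblasts exposed to sorafenib, a multikinase inhibitor given for liver cancer, or to its vehicle DMSO. The members were the 44 genes of a fixed list, taken from the 40840 genes of the count table by gene symbol, and all 44 were found there. They were sorted by role into NRF2 and its regulators (3 genes), NRF2 marker targets (3), glutathione synthesis and recycling (5), glutathione peroxidases (5), glutathione transferases (14), the thioredoxin system (5), peroxiredoxins (6), and superoxide dismutases with catalase (3). Of the 20444 genes with at least 10 counts over all libraries, 42 were members. The other two, the alpha class transferases Gsta1 and Gsta2, held 2 counts and 1 count in total and were not tested.

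Polyadenylated RNA was sequenced from 4 groups of 4 libraries each: DMSO for 48 hours, sorafenib for 48 hours, DMSO for 7 days and sorafenib for 7 days. All groups came from 1 immortal hepatoblast line that lacks p53 and overexpresses Myc, which the labels list as a hepatocellular carcinoma cell type, so every library, vehicle included, carried both alterations and no other line stands behind the values. Nothing in the labels says that the 4 replicates of a group were separate cultures, so p-values measure the spread between these libraries, which may be technical. Total counts ran from 16586254 to 30828427 per library, and 3 counts in a library corresponded to 2.44 to 4.54 normalized counts, the level below which a gene could not be told from absent. A normalized count is a gene's count scaled to the same effective library size in every library.

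The libraries were checked against markers of liver and other cells. Dlk1, a hepatoblast marker, was abundant at 32234 ± 841 normalized counts (SD, n = 4) in DMSO at 48 hours, whereas albumin (Alb) and Hnf4a were at or near 0 in all groups. Afp, also of the liver list, had group means of 0.217 to 9.45. Of the markers of other cells, Ptprc and Adgre1 (blood), Cdh5 (endothelium) and Lrat (stellate cells) were at or near 0. Cd68, the other of the 3 blood and macrophage markers, had group means of 66.0 to 69.1. Pecam1 and Stab2, of the 3 endothelial ones, had 1.66 to 12.4, and Des, of the 4 stromal and stellate ones, had 18.8 to 89.5. The summed level of the 4 stromal markers nevertheless ran from 111999 to 113807 in DMSO and from 121781 to 135075 with sorafenib at 48 hours. At 7 days it ran from 84166 to 88489 in DMSO and from 62037 to 63434 with sorafenib. It consists mainly of the collagens Col1a1, which rose with sorafenib (log2 fold changes 0.95 and 0.31), and Col3a1, which fell (-0.61 and -2.13). The summed level of the 11 liver markers ran from 35003 to 36371 in DMSO and from 12889 to 14807 with sorafenib at 48 hours. At 7 days it ran from 18791 to 20605 in DMSO and from 6900 to 7165 with sorafenib. Dlk1 made 89.5% to 90.7% of the liver sum in DMSO at 48 hours and 74.9% to 78.2% with sorafenib. At 7 days its share was 85.3% to 86.7% and 56.1% to 58.1%. Within the list Dlk1 (log2 fold changes -1.63 and -2.06), Krt19 (-0.77 and -0.52) and Epcam (-2.13 and -2.66) fell with sorafenib at both times. So did Krt8 (-0.69 and -1.1) and Krt18 (-0.4 and -0.92). Afp passed at 7 days only (-1.27, FDR 0.0481). Foxa2 and Sox9 rose at both times (1.77 and 0.84, and 1.64 and 1.37). The part of these shifts in the results was not tested.

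The library of sorafenib at 48 hours, replicate 2, stood apart. It had lowered counts on chromosomes 15 to 19 and X, by a median of 0.73 on the log2 scale relative to chromosomes 1 to 13, each gene being set against its mean in the other 3 replicates, and 10 members lie there: Txn2, Bach1, Sod1, Txnrd2, Sod2, Gstp1, Gsto1, Prdx3, Prdx5 and Prdx4. The end of chromosome 14, from 110 megabases on, was lowered too (medians of -0.65 and -0.62 in its last pair of 10-megabase bins), and no member lies there. Changes with sorafenib in these genes that moved without that library are given with and without it. On chromosomes 1 to 13 the library stood above the other replicates by a median of 0.09. Values of members elsewhere moved too when it was left out, such as Gstm1 at 48 hours, from -0.77 to -0.83 on the log2 scale.

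Glutathione, a tripeptide built from glutamate, cysteine and glycine, and thioredoxin, a small protein, are the main carriers of reducing power against peroxides, and both are recharged by reductases that use NADPH. Transferases attach glutathione to electrophiles, including many drugs, while peroxidases and peroxiredoxins spend it or thioredoxin on hydrogen and lipid peroxides. NRF2, kept low by KEAP1 and released when KEAP1 is modified by oxidants or electrophiles, binds the antioxidant response element with a small MAF partner and raises many of these genes, and BACH1 represses some of them from the same element. In the liver this network handles drug metabolites and heme, and it is often switched on in hepatocellular carcinoma.

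The core of the antioxidant response element, written TGACNNNGC, was searched on both strands in the 1000 bases before the canonical start of each gene (GENCODE annotation, genome build GRCm39). It was present for 16 of the 44 members (36.4%), beside 29.5% of the 14626 protein-coding genes that were tested. In the nearest 250 bases it was found for 8 members, against 10.5% of those genes. These 8 stretches are shown because they belong to members that went different ways. The sequence is read along the coding strand of the gene, with the matching letters in capitals; a match on the other strand reads GCNNNGTCA.

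Gclm: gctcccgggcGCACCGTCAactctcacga
Ggt1: gaagggaggaGCTGGGTCActgctgggga
Gsta3: aactcaggcaTGACATTGCatttttcttc
Gstm5: caccgcccacTGACCACGC
Txnrd1: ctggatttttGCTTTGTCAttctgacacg
Prdx1: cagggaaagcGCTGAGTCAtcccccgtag
Prdx6: ccacttcctcTGACTTAGCccacgtcaca
Sod1: ggcgcgctgtGCAAAGTCAgtgacaatcc

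The stretches lie at chr3:122039062-122039090 (plus strand, Gclm), chr10:75404450-75404478 (plus, Ggt1), chr1:21310678-21310706 (plus, Gsta3), chr3:107803118-107803136 (plus, Gstm5), chr10:82694938-82694966 (plus, Txnrd1), chr4:116542653-116542681 (plus, Prdx1), chr1:161079143-161079171 (minus, Prdx6) and chr16:90017303-90017331 (plus, Sod1). The motif began 54, 30, 118, 9, 65, 78, 63 and 95 bases before the start, in that order. The Prdx1 match also contains an AP-1 site, TGANTCA. Within 250 bases this motif was found for 5 members (Srxn1, Gsta4, Gstm5, Gsto1 and Prdx1), beside 4.9% of tested genes. Within 1000 bases it was found for 14 members, beside 22.3%. Of the members that rose at 48 hours, 9 of 15 had the core within 1000 bases, as did 4 of the 16 that fell. At 7 days it was 5 of 14 that rose and 8 of 17 that fell. The NRF2 marker targets Nqo1, Hmox1 and Srxn1 had no match to the core in this window, nor had Gclc and Gpx1. Srxn1 did hold AP-1 sites, reading TGAGTCA, at 45 and 102 bases before its start. A match describes letters only, and none of the windows was assayed for binding.

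Across the 42 tested members, sorafenib changed 31 at 48 hours and 31 at 7 days. At 48 hours 15 rose and 16 fell (35.7% and 38.1% of the members), beside 26.9% and 27.7% of all genes tested (FDR under 0.05 in the quasi-likelihood test of edgeR, adjusted by Benjamini and Hochberg over 20444 genes). At 7 days 14 rose and 17 fell (33.3% and 40.5%), beside 28.9% and 27.9%. Members are mostly well expressed. Among the 10646 tested genes whose mean reached 100 normalized counts, 76.4% were called at 48 hours and 76.3% at 7 days. Of the 34 members at that level 27 and 26 were called, and of all 42 tested members 73.8% at each time. The number of calls was thus near that of other well expressed genes, and what follows concerns which members moved and by how much. The median log2 fold change of the members was -0.07 and -0.10, beside -0.051 and 0.02 for all genes, and the median absolute change was 0.41 and 0.59, beside 0.50 at both times. The sorafenib and DMSO libraries did not overlap for 31 members at 48 hours and for 32 at 7 days, beside 48.0% and 56.8% of all genes, and the exact two-sided permutation p of each such member was 0.0286, the smallest that 4 libraries against 4 allow.

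**Figure D1:**
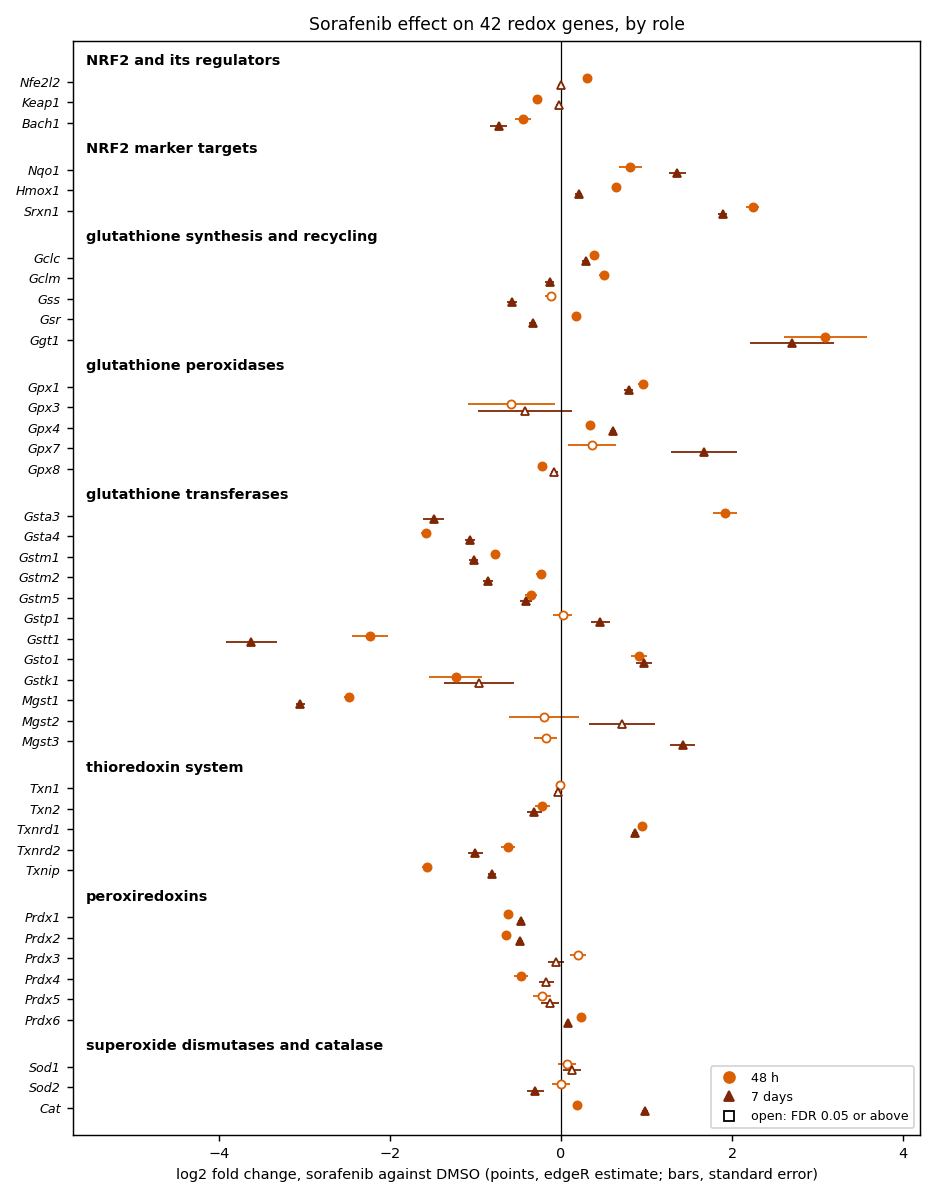
Log2 fold change of sorafenib against DMSO (horizontal axis) for the 42 tested members, grouped by role. Circles are 48 hours and triangles 7 days, bars are standard errors, and open symbols have an FDR of 0.05 or above; the 3 NRF2 marker targets lie to the right at both times, whereas Gsta3 lies at 1.92 at 48 hours and -1.49 at 7 days.

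The role groups differed in balance, and these differences between groups are described without a test. The 3 NRF2 marker targets rose at both times, with median log2 fold changes of 0.81 and 1.36. Among 5 genes of glutathione synthesis and recycling 4 rose at 48 hours, and at 7 days 2 rose and 3 fell, so that their median went from 0.38 to -0.13. The glutathione peroxidases had 2 rises and 1 fall at 48 hours and 3 rises at 7 days (medians 0.34 and 0.61). The 12 tested transferases leaned the other way, with 2 rises and 7 falls at 48 hours and 3 rises and 7 falls at 7 days (medians -0.29 and -0.90). The thioredoxin system had 1 rise and 3 falls at each time, and the peroxiredoxins 1 rise and 3 falls, then 1 rise and 2 falls.

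Nfe2l2 and Keap1 changed by small amounts at 48 hours and not detectably at 7 days, a difference between the times that passed its own test (interaction on the log2 scale -0.30 and 0.26, FDR 5.09e-05 and 0.00054). Nfe2l2, which encodes NRF2, stood at 1394, 1501, 1471 and 1417 normalized counts in DMSO at 48 hours and at 1781, 1846, 1710 and 1784 with sorafenib. All sorafenib libraries were higher, by a change of 0.30 on the log2 scale (standard error 0.0348, FDR 3.27e-07). At 7 days its DMSO libraries held 1912, 1917, 1865 and 1846 and its sorafenib libraries 1895, 1896, 1891 and 1847, and these overlapped (0.999-fold, FDR 0.983). Keap1, the adaptor that sends NRF2 to degradation, stood at 2138, 2165, 2150 and 2184 in DMSO and 1727, 1871, 1775 and 1735 with sorafenib at 48 hours. Its libraries did not overlap, and it fell by 0.28 on the log2 scale (standard error 0.0374, FDR 1.93e-06). At 7 days they held 1974, 1897, 1907 and 1806 against 1774, 1895, 1928 and 1865, with no detected difference (log2 fold change -0.02, FDR 0.634).

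Bach1, the heme-sensitive repressor, was the regulator that fell at both times. It stood at 2117, 2149, 2182 and 2232 in DMSO at 48 hours and at 1782, 1089, 1729 and 1751 with sorafenib, where the low second value belongs to the library that stood apart. It fell by 0.44 on the log2 scale (FDR 0.000477), and by 0.31 without that library (FDR 3.52e-11). At 7 days it went from 2071, 1947, 1980 and 2046 to 1160, 1215, 1263 and 1222, a change of -0.73 on the log2 scale (standard error 0.0956, FDR 1.65e-06).

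The marker targets of NRF2 rose at both times. Srxn1, sulfiredoxin, which restores overoxidized peroxiredoxins, went from 89.0, 87.6, 94.9 and 108 in DMSO to 449, 494, 425 and 432 with sorafenib at 48 hours, a 4.71-fold rise (log2 2.24, standard error 0.0735, FDR 1.01e-15). With 7 days of treatment it went from 355, 392, 407 and 368 to 1423, 1400, 1436 and 1404, a 3.71-fold rise (log2 1.89, standard error 0.0548, FDR 1.27e-16). Vehicle cells at 7 days thus held nearly the level that sorafenib cells had at 48 hours, and sorafenib at 7 days stood above both. Nqo1, a quinone reductase widely used as a readout of NRF2, went from 36.2, 46.8, 37.8 and 44.1 to 68.8, 68.0, 75.2 and 77.2 at 48 hours (log2 fold change 0.81, standard error 0.134, FDR 3.04e-05). With 7 days of exposure it went from 77.8, 68.5, 82.9 and 68.6 to 189, 204, 208 and 161 (1.36, standard error 0.100, FDR 3.57e-10). It was a gene of low level throughout, with no overlap between treatments at either time.

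Hmox1, heme oxygenase, went from 704, 718, 747 and 789 to 1149, 1190, 1187 and 1082 at 48 hours, a change of 0.64 on the log2 scale (standard error 0.0452, FDR 1.95e-10). In the 7 day libraries it went from 1916, 2053, 2118 and 2014 to 2390, 2354, 2311 and 2326, a smaller rise of 0.21 (standard error 0.0410, FDR 0.000179) on a vehicle level that had itself risen from 740 ± 37.6 to 2025 ± 84.7 (SD, n = 4).

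**Figure D2:**
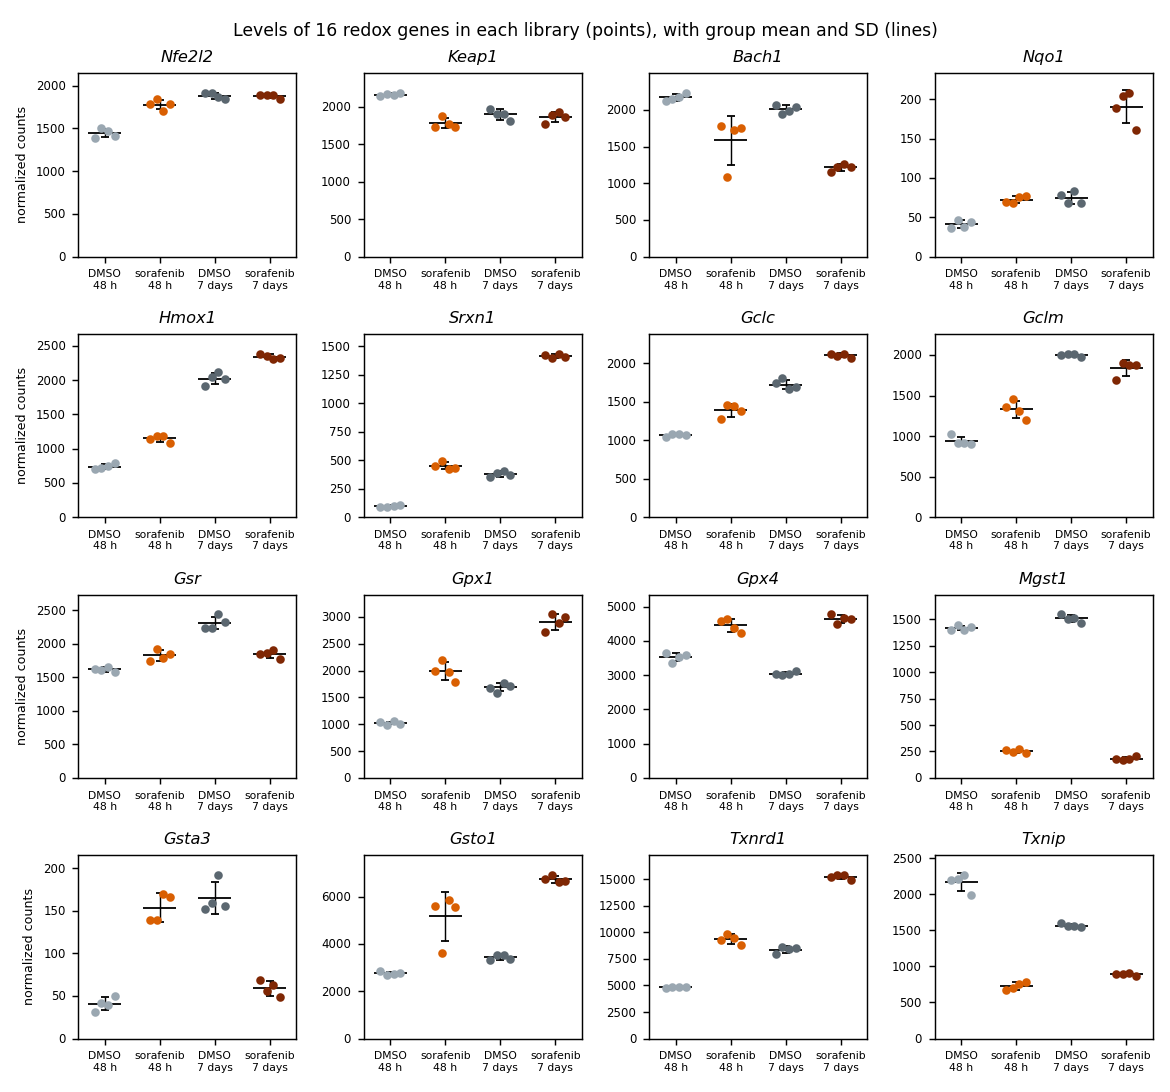
Normalized counts (vertical axes, from 0) of 16 members in each library (points), with the group mean and SD as black lines. Srxn1 sits at 1400 to 1436 in sorafenib at 7 days, above every other library, Mgst1 sits at 167 to 269 in the sorafenib libraries and at 1400 to 1549 in the DMSO libraries, and the low point of Bach1 and Gsto1 in sorafenib at 48 hours is replicate 2.

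Most genes of glutathione synthesis and recycling rose at 48 hours, and they split at 7 days. Gclc, the catalytic subunit of the rate-limiting glutamate-cysteine ligase, went from 1045, 1084, 1083 and 1072 to 1270, 1461, 1447 and 1380 at 48 hours (log2 fold change 0.38, standard error 0.0426, FDR 2.17e-07). At the later time it went from 1740, 1803, 1661 and 1689 to 2126, 2095, 2125 and 2066 (0.29, standard error 0.0404, FDR 3.87e-06). Gclc was higher with sorafenib at both times, without overlap. Gclm, the modifier subunit of the same enzyme, went from 1020, 919, 911 and 906 to 1355, 1452, 1312 and 1200 at 48 hours (0.50, standard error 0.0547, FDR 1.34e-07). At 7 days it went from 2006, 2009, 2018 and 1979 to 1687, 1904, 1873 and 1875, a change of -0.13 on the log2 scale (standard error 0.0513, FDR 0.0439). This small fall lay just inside the threshold, and other settings gave an FDR of up to 0.162 (without sorafenib at 7 days, replicate 1).

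Gsr, the reductase that recycles oxidized glutathione with NADPH, turned direction. It went from 1628, 1606, 1658 and 1584 to 1750, 1926, 1789 and 1844 at 48 hours, a change of 0.17 on the log2 scale (standard error 0.0393, FDR 0.00079) that missed the threshold when libraries were scaled to total counts (FDR 0.0536). With 7 days of treatment it went from 2242, 2243, 2443 and 2320 to 1844, 1865, 1902 and 1770, a change of -0.33 on the log2 scale (standard error 0.0384, FDR 3.68e-07). Gss, which joins glycine to complete glutathione, stood at 332 ± 8.37 and 306 ± 22.0 (SD, n = 4) at 48 hours, which did not pass (FDR 0.143), and fell from 428 ± 25.4 to 289 ± 17.4 at 7 days (log2 fold change -0.57, FDR 1.18e-07).

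Ggt1, the cell-surface transpeptidase that starts the breakdown of glutathione outside the cell, was nearly silent in vehicle. It had 1 to 4 counts per DMSO library and 7 to 16 per sorafenib library at 48 hours, and 1 to 2 against 5 to 17 at 7 days. Over the group these counts give a ratio of 9.13 (95% interval 4.11 to 23.9) at 48 hours and of 6.94 (3.12 to 18.2) at 7 days, with exact binomial intervals that cover counting error only. The edgeR test called both (FDR 1.46e-05 and 8.19e-05), and no sorafenib library overlapped a DMSO library. The normalized counts were 0.977, 0.868, 1.02 and 3.46 against 15.4, 10.6, 14.3 and 18.2 at 48 hours, and 2.16, 0.857, 1.73 and 1.86 against 5.62, 7.31, 14.9 and 16.7 at 7 days.

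Among the glutathione peroxidases, the abundant selenoenzymes Gpx1 and Gpx4 rose at both times. Gpx1, the cytosolic peroxidase, went from 1033, 992, 1054 and 1011 to 1983, 2202, 1974 and 1793 at 48 hours, a 1.94-fold rise (log2 0.96, standard error 0.0546, FDR 6.49e-12). With 7 days of exposure it went from 1673, 1586, 1760 and 1720 to 2709, 3050, 2886 and 2994 (log2 0.79, standard error 0.0522, FDR 6.24e-11). Gpx4, which reduces lipid hydroperoxides in membranes and restrains ferroptosis, stood at 3645, 3363, 3526 and 3577 in DMSO and at 4584, 4650, 4377 and 4235 with sorafenib at 48 hours. In the 7 day libraries it went from 3025, 3005, 3048 and 3109 to 4781, 4481, 4663 and 4641, a change of 0.61 on the log2 scale (standard error 0.0353, FDR 8.25e-12). The lowest sorafenib library of Gpx4 was above the highest DMSO library at each time.

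The peroxidases of the endoplasmic reticulum were less uniform. Gpx7 stood at 25.4, 35.6, 20.4 and 30.2 in DMSO and 46.3, 19.7, 37.1 and 39.7 with sorafenib at 48 hours, which overlapped (FDR 0.309). At the later time it went from 10.8, 7.71, 9.50 and 0.928 to 18, 22.7, 19.2 and 32.5 (log2 fold change 1.67, standard error 0.384, FDR 0.000895), with 1 to 11 counts per DMSO library. Gpx8 fell by 0.22 on the log2 scale at 48 hours (FDR 0.00011), and at 7 days its value was -0.08 (FDR 0.116). Gpx3, the secreted plasma peroxidase, stood at 1.51 to 15.8 normalized counts over all libraries, near the level of 3 counts, and did not pass at either time (FDR 0.357 and 0.548). Measured per kilobase of exon, the summed level of the 5 peroxidases was 3299 ± 78.4 in DMSO and 4437 ± 238 with sorafenib at 48 hours, and 3465 ± 64.2 and 5220 ± 44.1 at 7 days (SD, n = 4), of which Gpx4 made 62.0%, 58.3%, 51.0% and 51.6%.

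The transferases held both the deepest falls and large rises of the list. Mgst1, a membrane transferase that also reduces lipid peroxides, went from 1403, 1445, 1400 and 1423 to 262, 245, 269 and 238 at 48 hours, to 0.179 of the vehicle level (log2 fold change -2.48, standard error 0.0523, FDR 1.24e-18). At 7 days it went from 1549, 1503, 1516 and 1469 to 183, 167, 178 and 205, to 0.121 of the vehicle level (log2 -3.05, standard error 0.0527, FDR 5.79e-20). Its vehicle mean was 1418 and 1509 at the 2 times, and no library of one treatment came near the other. Gstt1, of the theta class, fell at both times from a low level, at 7 days from 37.8, 30.8, 35.4 and 51.9 to 2.25, 1.62, 3.50 and 4.92. The latter are 2 to 5 counts per library, and the counts over the group give a ratio of 0.0783 (95% interval 0.0408 to 0.138; edgeR log2 fold change -3.62, FDR 1.95e-09). At 48 hours Gstt1 went from 78.2, 71.1, 64.3 and 59.6 to 14, 15.1, 18.1 and 10.2 (log2 fold change -2.23, standard error 0.210, FDR 1.5e-08).

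Gsta3, an alpha class transferase, reversed between the time points, and its values, like those of Gsto1, Mgst3 and Txnrd1, are shown because of what they showed. It went from 31.3, 41.6, 39.8 and 50.1 to 139, 139, 170 and 166 at 48 hours, a 3.77-fold rise (log2 1.92, standard error 0.139, FDR 2.99e-10). With 7 days of treatment it went from 152, 159, 192 and 156 to 68.6, 56.0, 63.0 and 48.2, a fall to 0.356 of vehicle (log2 -1.49, standard error 0.126, FDR 2.78e-09). Its relative Gsta4, which detoxifies the lipid aldehyde hydroxynonenal, fell at both times, from 1140 ± 25.2 to 383 ± 20 and from 587 ± 53.8 to 281 ± 10.3 (log2 fold changes -1.58 and -1.06). The mu class genes Gstm1, Gstm2 and Gstm5 fell at both times, with log2 fold changes of -0.77, -0.23 and -0.35 at 48 hours and -1.02, -0.85 and -0.41 at 7 days. Near-identical copies make the split of reads between mu class genes uncertain.

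The omega class gene Gsto1, which acts as a thioltransferase and dehydroascorbate reductase, went the opposite way. It held 2857, 2691, 2722 and 2768 in DMSO at 48 hours and 5601, 3626, 5868 and 5577 with sorafenib. Replicate 2 is again the low value, and the log2 fold change was 0.91 with it (FDR 6.44e-08) and 1.04 without (FDR 7.38e-34). At 7 days Gsto1 went from 3336, 3540, 3543 and 3345 to 6739, 6925, 6609 and 6645, a 1.96-fold rise (log2 0.97, standard error 0.0933, FDR 2.06e-08). Mgst3 stood at 107 ± 11.0 in DMSO and 95.6 ± 21.2 with sorafenib at 48 hours, which did not pass (log2 -0.18, FDR 0.279). At 7 days it was higher with sorafenib, at 37.8, 52.3, 42.3 and 45.4 in DMSO and 106, 121, 120 and 133 with the drug (1.42, standard error 0.145, FDR 4.5e-08). Gstp1, the pi class enzyme, rose from 1288 ± 24.9 to 1776 ± 55.3 at 7 days (0.46, FDR 0.00133). At 48 hours its log2 fold change was 0.02 (FDR 0.877), and 0.18 (FDR 1.38e-05) without replicate 2. The low genes Gstk1 and Mgst2 had at most 21.5 normalized counts in any library, and of these Gstk1 fell at 48 hours (log2 -1.23, FDR 0.00217) and did not pass at 7 days (FDR 0.0555), whereas Mgst2 did not pass at either time (FDR 0.707 and 0.125).

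The members of the family therefore shifted against each other more than the total did. The summed level of the 14 transferases per kilobase of exon was 4161 ± 20.6 in DMSO and 3641 ± 468 with sorafenib at 48 hours (SD, n = 4; 3874 ± 55.9, n = 3, without replicate 2), and 3986 ± 34.1 and 3944 ± 72.6 at 7 days. Mgst1 made 16.8% ± 0.278 of that sum in DMSO at 48 hours and 3.47% ± 0.457 with sorafenib, and 18.6% ± 0.271 and 2.29% ± 0.218 at 7 days. Gsto1 made 18.7% ± 0.472 and 39.8% ± 3.44 at 48 hours, where it was 41.4% ± 1.16 without replicate 2, and 24.4% ± 0.770 and 48.2% ± 0.912 at 7 days. These shares use the length of all annotated exons of a gene, so a gene that expresses only a short transcript is understated in all groups alike.

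**Figure D3:**
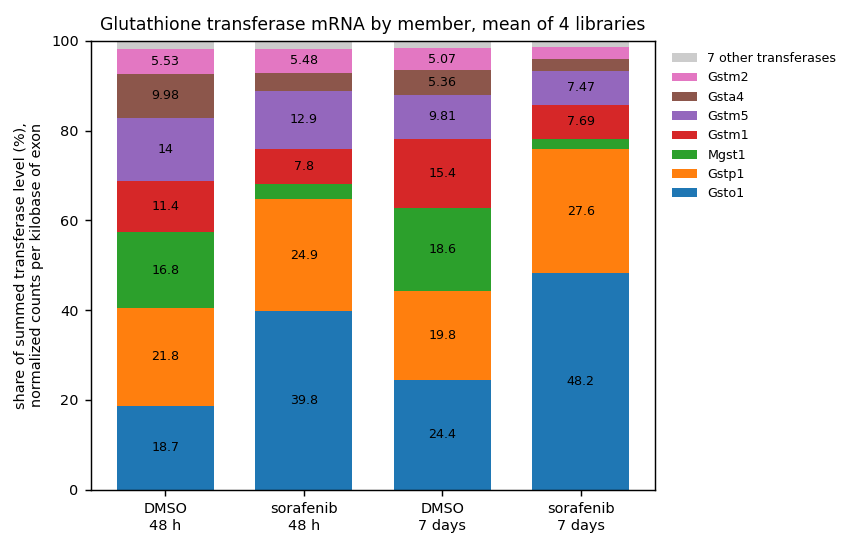
Share of the summed glutathione transferase level (normalized counts per kilobase of exon, vertical axis, in percent) by member, as the mean of 4 libraries per group. With sorafenib Gsto1 takes 39.8% and 48.2% of the sum, against 18.7% and 24.4% in DMSO, and Mgst1 falls to 3.47% and 2.29%.

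The cytosolic and mitochondrial thioredoxin reductases moved in opposite directions, a split by compartment that was made after the values were seen. Txnrd1, the cytosolic thioredoxin reductase and a selenoprotein, went from 4758, 4872, 4870 and 4856 to 9331, 9892, 9480 and 8772 at 48 hours, a 1.94-fold rise (log2 0.95, standard error 0.0346, FDR 4.68e-15). With 7 days of exposure it went from 7963, 8642, 8408 and 8550 to 15240, 15428, 15411 and 14974 (log2 0.86, standard error 0.0342, FDR 1.8e-14). Its substrate Txn1, cytosolic thioredoxin, stood at 6846 ± 219 and 6778 ± 98.3 at 48 hours and at 7818 ± 126 and 7620 ± 147 at 7 days, with log2 fold changes of -0.01 and -0.04 (FDR 0.703 and 0.288). Txnrd2, the mitochondrial reductase, went from 400, 362, 405 and 399 to 254, 207, 289 and 259 at 48 hours (log2 -0.62, standard error 0.0842, FDR 2.74e-06; -0.54 without replicate 2). In the 7 day libraries it went from 427, 408, 388 and 412 to 210, 191, 232 and 185 (log2 -1.0, standard error 0.0833, FDR 2.36e-09). Txn2, mitochondrial thioredoxin, fell by 0.31 on the log2 scale at 7 days (FDR 0.00581). Its value at 48 hours was -0.22 with an FDR of 0.0428, which rose to as much as 0.147 under other settings, and -0.09 (FDR 0.00643) without replicate 2.

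Txnip, which binds thioredoxin and blocks it and which also responds to glucose, fell at both times. It went from 2190, 2211, 2267 and 1988 to 671, 697, 750 and 784 at 48 hours, to 0.336 of vehicle (log2 -1.57, standard error 0.0488, FDR 4.07e-16). At the later time it went from 1595, 1552, 1554 and 1548 to 892, 898, 903 and 861, to 0.569 of vehicle (log2 -0.81, standard error 0.0473, FDR 8.15e-12).

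Peroxiredoxins 1 and 2, the abundant cytosolic enzymes that thioredoxin recharges, fell. Prdx2 went from 8548, 8468, 8157 and 7579 to 5156, 5510, 5089 and 5242 at 48 hours (log2 -0.64, standard error 0.0380, FDR 1.16e-11), and from 6644, 6478, 6660 and 6695 to 4660, 4650, 4697 and 4972 at 7 days (-0.48, standard error 0.0379, FDR 9.86e-10). Prdx1 fell from 12447 ± 597 to 8072 ± 283 and from 13094 ± 137 to 9449 ± 190 (log2 -0.62 and -0.47). Prdx6, which uses glutathione in place of thioredoxin, rose from 6399 ± 106 to 7492 ± 299 at 48 hours (0.23, FDR 2.72e-06), and its value at 7 days was 0.08 (FDR 0.0375, up to 0.117 with a replicate left out). The summed peroxiredoxin level per kilobase of exon was 7662 ± 268 and 5977 ± 288 at 48 hours, and 7716 ± 72.9 and 6323 ± 91.4 at 7 days.

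The remaining peroxiredoxins and both superoxide dismutases lie on the chromosomes with lowered counts in replicate 2. Prdx3, of the mitochondria, had a log2 fold change of 0.20 at 48 hours (FDR 0.0694), which was 0.33 without that library (FDR 2.95e-12). Prdx4, of the endoplasmic reticulum, fell by 0.47 on the log2 scale at 48 hours (FDR 6.99e-05; -0.35 without replicate 2). Prdx5 had -0.22 (FDR 0.0822) with replicate 2 and -0.08 (FDR 0.109) without it. Sod1, the cytosolic dismutase, had 0.07 (FDR 0.605) with it and 0.21 (FDR 1.42e-05) without. Sod2, the mitochondrial dismutase, stood at 1999 ± 68.0 and 1985 ± 449 with it (FDR 0.983), and without it the log2 fold change was 0.15 (FDR 0.000231). Since the fit shares 1 estimate of the spread per gene over all groups, the same library touched the 7 day calls: Prdx4, Prdx5 and Sod1 had log2 fold changes of -0.17, -0.13 and 0.13 with FDR of 0.0848, 0.296 and 0.294, and the same values with FDR of 2.92e-05, 0.00246 and 0.00152 without it. Sod2 fell at 7 days in both fits (-0.30, FDR 0.0172 and 2.76e-12).

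**Figure D4:**
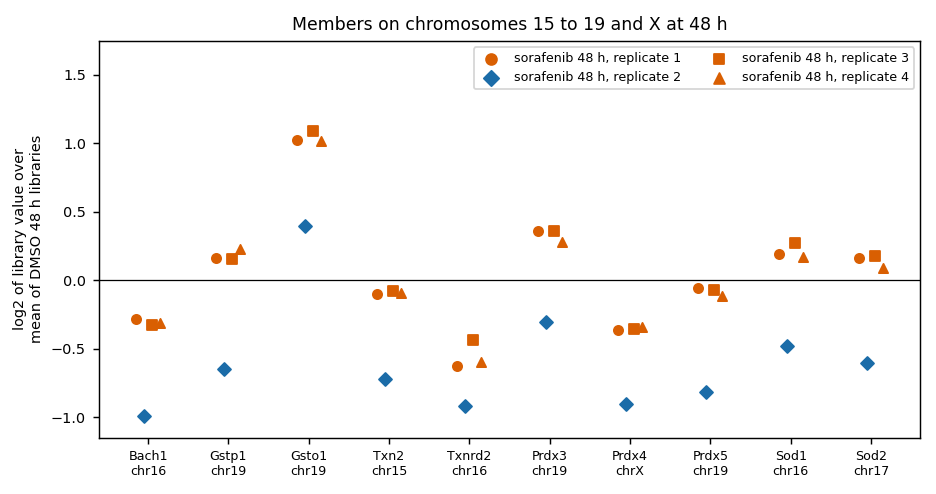
The 10 members on chromosomes 15 to 19 and X (horizontal axis), each sorafenib library at 48 hours as the log2 of its normalized count over the mean of the DMSO libraries at 48 hours (vertical axis). Replicate 2 (blue diamonds) lies below the other replicates for all 10 genes, also for Gsto1, which had 3626 normalized counts there and 5577 to 5868 in the others.

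Without replicate 2, 19 members rose and 16 fell at 48 hours (28.5% and 28.6% of all genes), and 15 rose and 19 fell at 7 days (31.2% and 30.7%). The added calls were Gstp1, Prdx3, Sod1 and Sod2 at 48 hours and Prdx4, Prdx5 and Sod1 at 7 days, and no call was lost.

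Catalase (Cat), the peroxisomal enzyme that splits hydrogen peroxide, went from 2098, 2091, 2153 and 2084 to 2420, 2424, 2436 and 2311 at 48 hours (log2 0.19, standard error 0.0322, FDR 4.89e-05). At 7 days it went from 1476, 1492, 1508 and 1470 to 2793, 2938, 3011 and 2975, a 1.97-fold rise (log2 0.98, standard error 0.0324, FDR 1.01e-15). No sorafenib library overlapped a DMSO library at either time, and the vehicle level of Cat was the lower at 7 days.

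Whether the response itself differed between 48 hours and 7 days was tested as the interaction of treatment and time. It passed for 24 of the 42 members (57.1%), 11 toward higher and 13 toward lower at 7 days, beside 36.8% of all genes. Among genes whose mean reached 100 it passed for 55.6%, and for 20 of the 34 members at that level. The largest difference was that of Gsta3, at -3.41 on the log2 scale (standard error 0.188, FDR 1.89e-11). Mgst3 followed with 1.60, Gstt1 with -1.40 and Gpx7 with 1.32. Of these Gstt1 missed the threshold without sorafenib at 7 days, replicate 2 (FDR 0.0521), and Gpx7 missed it when any 1 of 7 libraries was left out (0.0508 to 0.0920) and with a replicate block (0.105). Cat and Txnip differed by 0.79 and 0.76, and Gclm and Gsr by -0.63 and -0.50. Among the marker targets Nqo1 had 0.55, Hmox1 -0.43 and Srxn1 -0.34, of which Srxn1 did not pass when libraries were scaled to total counts (-0.25, FDR 0.0654). On the chromosomes with lowered counts, Gstp1 had 0.44 (FDR 0.0348) and 0.28 (FDR 3.2e-06) without replicate 2, and Txnrd2 -0.38 (FDR 0.0161) and -0.46 (FDR 0.0004). Without replicate 2 the interaction passed for 30 members, beside 43.0% of all genes, with Bach1, Gpx8, Txn2, Prdx3, Prdx4 and Sod2 added.

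Vehicle cells also changed with time. Between DMSO at 48 hours and DMSO at 7 days 18 members were higher and 13 lower, beside 23.9% and 25.5% of all genes. Among genes whose mean reached 100 the shares were 38.1% and 33.6%, and of the 34 members at that level 17 were higher and 9 lower. Time in culture cannot be told apart here from anything else that differed between these cultures. Srxn1 rose from 94.9 ± 9.32 to 380 ± 23.4 (log2 2.00), Hmox1 by 1.45, Gclm by 1.09 and Nqo1 by 0.84 on the log2 scale. Gsta3 rose from 40.7 ± 7.73 to 165 ± 18.1, so that its fall with sorafenib at 7 days started from a vehicle level near that of sorafenib at 48 hours (154 ± 16.9). Cat fell from 2106 ± 31.6 to 1487 ± 17.1 and Gpx4 from 3528 ± 120 to 3047 ± 45.0, in vehicle alone. Mgst3 fell in vehicle from 107 ± 11.0 to 44.5 ± 6.06 (log2 -1.26), and Gpx7 from 27.9 ± 6.49 to 7.24 ± 4.39 (-1.96). The higher values of Mgst3 and Gpx7 with sorafenib at 7 days are thus set against a lowered vehicle level. In the fit without replicate 2 of sorafenib at 48 hours, which holds none of these libraries but enters the shared spread, 21 were higher and 15 lower (27.1% and 28.2% of all genes), with Bach1, Gstp1, Mgst1, Prdx1 and Sod1 added. This comparison shares its libraries with the comparisons of sorafenib, so the values are set side by side and not related by a test.

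Genes next to the members in the same pathways were counted from lists of their own, without a test of any list. Their counts stand beside the shares of all genes above, 26.9% higher and 27.7% lower at 48 hours and 28.9% and 27.9% at 7 days, and beside the 76.4% and 76.3% called either way among genes whose mean reached 100. Genes were named from those that reached this level. Of 10 partners, relatives and turnover factors of NRF2 and its regulators, 8 rose and 1 fell at each time, or 90.0% called. Their median log2 fold changes were 0.73 and 0.61, over genes that do not all act on NRF2 in the same way. Sqstm1, the autophagy receptor that sequesters KEAP1, had the largest change of them at 7 days, from 5315 ± 165 to 22524 ± 324 (log2 fold change 2.08). At 48 hours it was Bach2, a relative of Bach1 (1.93). Of 17 other NRF2 targets 10 rose and 4 fell at 48 hours, and 11 rose and 4 fell at 7 days (82.4% and 88.2% called, medians 0.72 and 0.48). The cystine importer Slc7a11 had log2 fold changes of 4.15 and 2.30. The efflux pump Abcc4, at the end of chromosome 14, had 1.63 and 1.82, and 1.76 at 48 hours without replicate 2, which held 2100 normalized counts of it against 3163 to 3364 in the other sorafenib libraries. Without that library 11 rose and 4 fell at 48 hours, with Abcc1 added (0.19, FDR 0.109, against 0.34, FDR 3.82e-14), and 11 rose and 5 fell at 7 days, with G6pdx added. All 6 genes of cysteine supply changed, 5 up and 1 down at each time, with Cth, which makes cysteine from cystathionine, at 3.94 and 3.42. Beside these stand the log2 fold changes of the enzymes that build cysteine into glutathione, 0.38 and 0.29 for Gclc and 0.50 and -0.13 for Gclm; the difference was not tested.

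Of 15 genes of glutathione turnover and the glutaredoxin and glyoxalase systems, 4 rose and 7 fell at 48 hours and 3 rose and 9 fell at 7 days (73.3% and 80.0% called, medians -0.18 and -0.34). Without replicate 2 the falls at 7 days were 11, with Glrx5 and Glo1 added. The falls included Glrx and Hagh at 48 hours and Glrx, Glrx2 and Glrx3 at 7 days, which are not turnover genes. Chac1, which degrades glutathione inside the cell, had log2 fold changes of 3.58 and 2.76, Ggt7 -1.28 at 48 hours and Oplah, of the same cycle, -1.77 at 7 days. Below the level for naming, Ggt5 and Ggt6 were called lower at both times and Dpep1 at 7 days, on at most 12 counts in any library. Of 12 genes of NADPH production 5 rose and 5 fell at each time (83.3% called), and 5 rose and 7 fell at 48 hours and 5 and 6 at 7 days without replicate 2, from Aldh1l2 (3.68 and 2.99) and Mthfd2 (2.35 at 48 hours), both of mitochondrial folate metabolism, to Idh1 (-1.67 at 7 days).

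Of 18 further members of the peroxidase, transferase, thioredoxin and dismutase families 14 were tested, and 4 rose and 4 fell at 48 hours, 5 and 2 at 7 days, or 8 and 7 called. Without replicate 2, Nxn lost its call at 48 hours (FDR 0.0295 with it, 0.0542 without). The 3 of them whose mean reached 100 changed by small amounts: Gstz1 rose (0.45 and 0.70), as did Txnrd3 at 48 hours (0.39), and Nxn fell at 7 days (-0.31). Larger changes, named after their values were seen, lay among low genes. Gsto2 rose (log2 1.95 and 1.99), and Gstt3 and Gstm7 fell at 48 hours (-2.56 and -1.43), all with at most 74 counts in any library. Sod3, the secreted dismutase, had 15 to 35 counts per library in sorafenib at 7 days (FDR 4.35e-07) and 0 or 1 in every other library. Of the 7 genes that make selenoproteins 3 rose and 2 fell at 48 hours and 2 rose and 2 fell at 7 days (71.4% and 57.1% called), within small changes such as 0.40 for Sepsecs at both times, 0.23 for Sephs1 at 48 hours and -0.75 for Sephs2 at 7 days. The selenoproteins among the members were not uniform either: Gpx1, Gpx4 and Txnrd1 rose and Txnrd2 fell at both times, while Gpx3 did not pass.

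On GRCm39 the annotated spans of some of the members shown by library are Srxn1 on chromosome 2 from 151947436 to 151957687, Mgst1 on chromosome 6 from 138117314 to 138133774, Gsta3 on chromosome 1 from 21310806 to 21335885, Gsto1 on chromosome 19 from 47842686 to 47853229, and Txnrd1 on chromosome 10 from 82669785 to 82733546. Some values rest on the counting. By the annotation, 12 members overlap a protein-coding gene, among them Gss, Gsto1, Txnrd1 and Prdx2, and 33 overlap a gene on the opposite strand. The library kit keeps the strand, but the setting used in counting is not given in the sources used here. Reads of a gene and of its partner may therefore be mixed for these members. The overlaps are of whole annotated spans, introns included, and the overlap of exons was not measured.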

How the data were processed

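The deposited values are raw counts of reads per gene, which the authors did not normalize, filter or pool; their processing notes name STAR 2.7.1a, featureCounts 2.0.6 of the Subread package, DESeq2 1.40.2 and the build GRCm39, while the annotation and strand setting are not given in the sources used here. Groups came from the sample labels, all 16 libraries were used, and 0 columns of sample values were left out. The test was the quasi-likelihood test of edgeR 4.0.16 in R 4.3.3 (TMM, 1 model with the 4 groups and no block) on the 20444 genes with at least 10 counts in total, with Benjamini-Hochberg adjustment over all of them, and the test was checked on simulated data. Normalized counts are counts over the library total times its TMM factor, rescaled to the geometric mean of the libraries. The sum per kilobase used all exons of GENCODE vM39, and intervals are exact at 95%. Every member was named. Values of each library were given for the members with the largest absolute log2 fold change of their role at either time and for Nfe2l2, Keap1, Bach1, Nqo1, Hmox1, Srxn1, Gclc, Gclm, Gsr and Gpx4. From each list of other genes the 2 largest changes at each time were named, among called genes whose mean reached 100 normalized counts. Members and lists were chosen with earlier results of these data known. Gsta3, Gsto1, Mgst3 and Txnrd1 were added to the members shown by library after their values were seen. Alternatives were DESeq2 1.42.0, its size factors, total counts, limma 3.58.1 voom with weights, other filters, a fold threshold, a replicate block, only the libraries of a time point, and leaving out each library. Total counts per library were 16586254 to 30828427, and the spread between replicates exceeded sampling noise in every pair.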

Additional observations from a re-analysis of the deposited data

Results flagged for a closer look

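Within groups of 4 libraries, 19 of the 162 sets of values of single members had 1 library far from the others (Dixon's test of the gap to the nearest one at the 95% level), where chance alone gives about 1 in 20, or 8.1 sets. Of these, 9 were sorafenib at 48 hours, replicate 2, in members on chromosomes 15 to 19 and X. In normalized counts they were Bach1 at 1089 (the others 1729 to 1782), Gstp1 at 945 (1651 to 1738), Gsto1 at 3626 (5577 to 5868), Txn2 at 2226 (3421 to 3483), Prdx3 at 1319 (1985 to 2092), Prdx4 at 1201 (1747 to 1774), Prdx5 at 871 (1420 to 1475), Sod1 at 2286 (3576 to 3839) and Sod2 at 1317 (2129 to 2261).

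The other sets lay in 7 further libraries. Replicate 1 of DMSO at 48 hours had Gclm at 1020 and Txnrd1 at 4758, replicate 2 had Txnrd2 at 362, and replicate 4 had Gstp1 at 1534. Replicate 1 of DMSO at 7 days had Gsta4 at 667 and Txnip at 1595. Replicate 4 of sorafenib at 48 hours had Cat at 2311. In sorafenib at 7 days, replicate 1 had Gclm at 1687, and replicate 4 had Nfe2l2 at 1847 and Prdx2 at 4972. Of these values, those of Nfe2l2 and Gstp1 lay within the range of the other treatment at the same time. For Gstp1 this rests on replicate 2 of sorafenib at 48 hours (945), as the other sorafenib libraries held 1651 to 1738.

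The response to sorafenib differed between the time points for 24 members by the interaction of treatment and time (edgeR, FDR under 0.05). As the log2 fold change at 7 days minus that at 48 hours, it was higher for Mgst3 (1.60), Gpx7 (1.32), Cat (0.79), Txnip (0.76), Nqo1 (0.55), Gsta4 (0.52), Gstp1 (0.44, and 0.28 without sorafenib at 48 hours, replicate 2), Gpx4 (0.27), Keap1 (0.26), Prdx2 (0.16) and Prdx1 (0.15). It was lower for Gsta3 (-3.41), Gstt1 (-1.40), Gclm (-0.63), Gstm2 (-0.63), Mgst1 (-0.57), Gsr (-0.50), Gss (-0.45), Hmox1 (-0.43), Txnrd2 (-0.38, and -0.46 without that library), Srxn1 (-0.34), Nfe2l2 (-0.30), Gstm1 (-0.25) and Prdx6 (-0.15).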

How the results depend on the processing

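Of the 31 members called at 48 hours 29 kept their call under every alternative that could be fitted for them other than the fold threshold (exceptions Gsr and Txn2), as did 29 of 31 at 7 days (exceptions Gclm and Prdx6) and 16 of 24 for the interaction (exceptions Srxn1, Gpx7, Gstm1, Gstp1, Gstt1, Txnrd2, Prdx2 and Prdx6). The filter of 10 counts in every library removed low members such as Ggt1, Gstt1, Gpx7 and Gstk1. The interaction of Gstp1 missed the threshold in 8 of 23 alternatives (FDR up to 0.0626). A threshold of 1 on the absolute log2 fold change left 3 rises and 5 falls at 48 hours, 5 and 5 at 7 days, 4 interactions and 7 changes in vehicle. No share of all genes stands beside these counts or those of the replicate block. They show only how the calls depend on the setting. The replicate numbers did not pair the libraries (same-number correlations of -0.0483 to 0.0106 at 48 hours and -0.0074 to 0.123 at 7 days). With a replicate block 15 rose and 17 fell at 48 hours and 14 and 17 at 7 days, with 23 interactions. The block was set within each time, so its 23 changes in vehicle compare only the fitted levels of replicate 1. They are not the main vehicle comparison with a block added. Of the 11 members not called at each time, 4 at 48 hours and 1 at 7 days kept both that status and their sign under every alternative. Gss and Prdx5 at 48 hours were called in 3 and 6 alternatives, and Gstk1 at 7 days in 3. Among values not called, the sign turned for few, near 0 except where noted. The cause was not tested. At 48 hours Gstp1 was -0.05 with total counts, -0.02 with at least 10 counts in every library, -0.01 with the replicate block, and -0.08 to 0.18 with 1 library left out. Sod1 was -0.0029 with total counts and -0.03 to 0.21 with 1 library left out, Txn1 was 0.02 without a filter, and Sod2 was 0.04 without a filter, 0.10 with limma voom and -0.10 to 0.15 with 1 library left out. At 7 days Nfe2l2 was 0.02 with total counts, with no filter and with the stricter filter, 0.00017 with limma voom and up to 0.01 with 1 library left out, Keap1 was 0.00062 with no filter, 0.0035 with the stricter filter and up to 0.00025 with 1 library left out, and Gpx3 was -1.18 to 0.05 in this way. Depth limits Gsta1, Gsta2, Ggt1, Gpx3, Gpx7, Gstk1, Gstt1 and Mgst2, which had few counts per library.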
